A study of Mus musculus with 18 samples.

Results

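The perilipins are a family of proteins that coat the lipid droplet, the organelle in which cells keep neutral fat. The 5 mouse genes of the family, Plin1, Plin2, Plin3, Plin4 and Plin5, were chosen by name, with probes found under the current symbol or an older one of the same gene. They were measured by 6 of the 45281 probes of each deposited table and are 5 of the 14422 genes that the probes name. Plin5 had 2 probes and each of the others had 1.

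Messenger RNA was measured on 18 Illumina bead arrays, with 3 from the liver and 3 from the epididymal fat of each of 3 diet groups of mice. They were C57BL/6J males, a strain also spelled C56BL/6J in the labels, were 4 weeks old at arrival and ate their diets for 16 weeks. A normal diet was given to 10 of them (ND), a high-fat diet of 20% fat and 1% cholesterol to 13 (HFD), and that high-fat diet plus luteolin, a flavonoid of plants, at 0.005% by weight to another 13 (LU), counts that are per diet and not per array. The study set out to measure transcripts of lipid metabolism in both tissues, and nothing in the labels ties each array to its own mouse. The p-values therefore cover the spread among these samples alone, part or all of which may be technical.

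Perilipins stand between stored triglyceride and the enzymes that break it down. PLIN1, the main coat of the fat cell's droplet, holds the lipase activator ABHD5 until hormonal signals release it to the lipase PNPLA2. PLIN2 coats droplets in most cells and builds up in fatty liver, PLIN3 moves between cytosol and new droplets, PLIN4 is found mostly on droplets of fat cells, and PLIN5 is typical of tissues that burn fat and links droplets to mitochondria. In mouse, Plin2 and Plin5 are known targets of the fatty acid sensor PPAR alpha, and Plin1 and Plin4 of PPAR gamma, the fat cell regulator.

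Promoters of 3 members are shown because Plin2 and Plin5 fell together in liver while Plin4, the neighbour of Plin5 on chromosome 17, rose on the high-fat diet. Each is 300 bases from RefSeq (GRCm38.p6), 250 before and 50 after a transcription start, on the minus strand and written 5′ to 3′. Capitals mark AGGTCA, a short site of nuclear receptors, on either strand (TGACCT where it lies on the other one), and the E-box CACGTG.
Plin2, chr4:86670010-86670309: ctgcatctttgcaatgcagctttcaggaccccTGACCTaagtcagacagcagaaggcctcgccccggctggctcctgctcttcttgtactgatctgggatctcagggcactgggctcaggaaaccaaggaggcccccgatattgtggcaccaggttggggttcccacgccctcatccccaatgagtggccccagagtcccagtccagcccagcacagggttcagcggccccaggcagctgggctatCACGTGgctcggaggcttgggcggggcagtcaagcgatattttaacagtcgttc
Plin5, chr17:56117499-56117798: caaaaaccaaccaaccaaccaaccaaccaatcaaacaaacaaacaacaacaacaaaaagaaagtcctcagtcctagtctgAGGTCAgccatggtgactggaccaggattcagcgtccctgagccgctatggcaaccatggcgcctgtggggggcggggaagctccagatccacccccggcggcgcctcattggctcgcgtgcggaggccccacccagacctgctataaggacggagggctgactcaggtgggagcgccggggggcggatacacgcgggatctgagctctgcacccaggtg
Plin4, chr17:56109733-56110032: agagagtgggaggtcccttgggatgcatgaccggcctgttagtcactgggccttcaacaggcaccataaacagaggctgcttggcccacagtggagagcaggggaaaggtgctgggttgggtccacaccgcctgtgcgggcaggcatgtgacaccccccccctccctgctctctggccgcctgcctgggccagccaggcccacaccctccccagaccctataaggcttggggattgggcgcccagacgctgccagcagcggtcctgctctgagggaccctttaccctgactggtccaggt
AGGTCA was found 1 time in the Plin2 window, 218 bases before the start, and 1 time in this Plin5 window, 170 bases before the start. A second Plin5 start, with its window at chr17:56117249-56117548, also had 1 match, which lay after the start. The windows of Plin1, Plin3 and Plin4 held none. Of 32851 mouse promoters of the same length, 16.3% held AGGTCA. The direct repeat AGGTCANAGGTCA was in no perilipin window and in 0.0396% of all promoters. CACGTG was in the Plin2 window only among the perilipins, 4 bases before the start, and in 7.15% of all promoters. These are matches of letters and no measure of binding.

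The number of probes with a detection p under 0.05 ran from 15464 to 16998 per array in liver and from 19113 to 19852 in fat. In liver 9 of 11 hepatocyte markers with a probe were detected on all 9 arrays, Fgb and Tat on none. All 9 fat cell markers with a probe were detected on all 9 fat arrays. In liver 5 of them (Adipoq, Lep, Retn, Fabp4 and Acvr1c) were detected on no array, Slc2a4 on 1, Adig on 3, Lipe on 6 and Car3 on all 9. Of the hepatocyte markers 6, Alb among them, were detected on no fat array. In bulk tissue, fewer cells of a type and less RNA per cell cannot be told apart. Values below are normalized intensities, differences are on the log2 scale with their standard error (SE) and 3 arrays per diet, and adjusted p-values come from limma with the Benjamini-Hochberg method over all genes tested, 8937 in liver, 10240 in fat and 10764 where both tissues were compared. A difference is said to pass with an adjusted p under 0.05.

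The family divided between the tissues. Plin1 was not detected on any liver array, where its intensity lay between 29.0 and 38.2 and marks background only, and was detected on all 9 fat arrays. Its level was at least 34.0-fold higher in fat on ND, 30.3-fold on HFD and 36.8-fold on LU, a bound taken against the lowest detected signal of the liver arrays. Plin4 was also higher in fat, by 4.97 ± 0.19 on ND, 3.41 ± 0.19 on HFD and 4.00 ± 0.19 on LU (adjusted p = 1.97e-13, 3.11e-11 and 3.86e-12). Its probe lay at 84.6% to 95.2% of the brightest probe of each fat array, which can compress these differences, and by how much was not tested.

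Plin5 was higher in liver on each diet, and the gap narrowed from ND over HFD to LU: fat minus liver was -2.92 ± 0.10, -2.34 ± 0.10 and -1.30 ± 0.10 (adjusted p = 5.31e-14, 1.08e-12 and 2.76e-09). Plin2 was lower in fat by 1.43 on ND (fat minus liver -1.43 ± 0.09, adjusted p = 2.82e-10). On HFD its difference was -0.18 with a 95% interval from -0.38 to 0.01 (adjusted p = 0.0751), and on LU 0.17 with an interval from -0.02 to 0.37 (adjusted p = 0.0922). Without ND fat replicate 1 these last differences of Plin2, -0.18 and 0.17, passed with adjusted p = 0.0301 and 0.0397. Plin3 was higher in fat by 0.32 ± 0.09, 0.43 ± 0.09 and 0.33 ± 0.09 on ND, HFD and LU (adjusted p = 0.00262, 0.000189 and 0.00202). Among all genes, 85.7%, 85.3% and 84.7% differed between the tissues on ND, HFD and LU. The tissues lie in separate tables, so tissue and any difference between the hybridizations cannot be told apart.

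**Figure D1:**
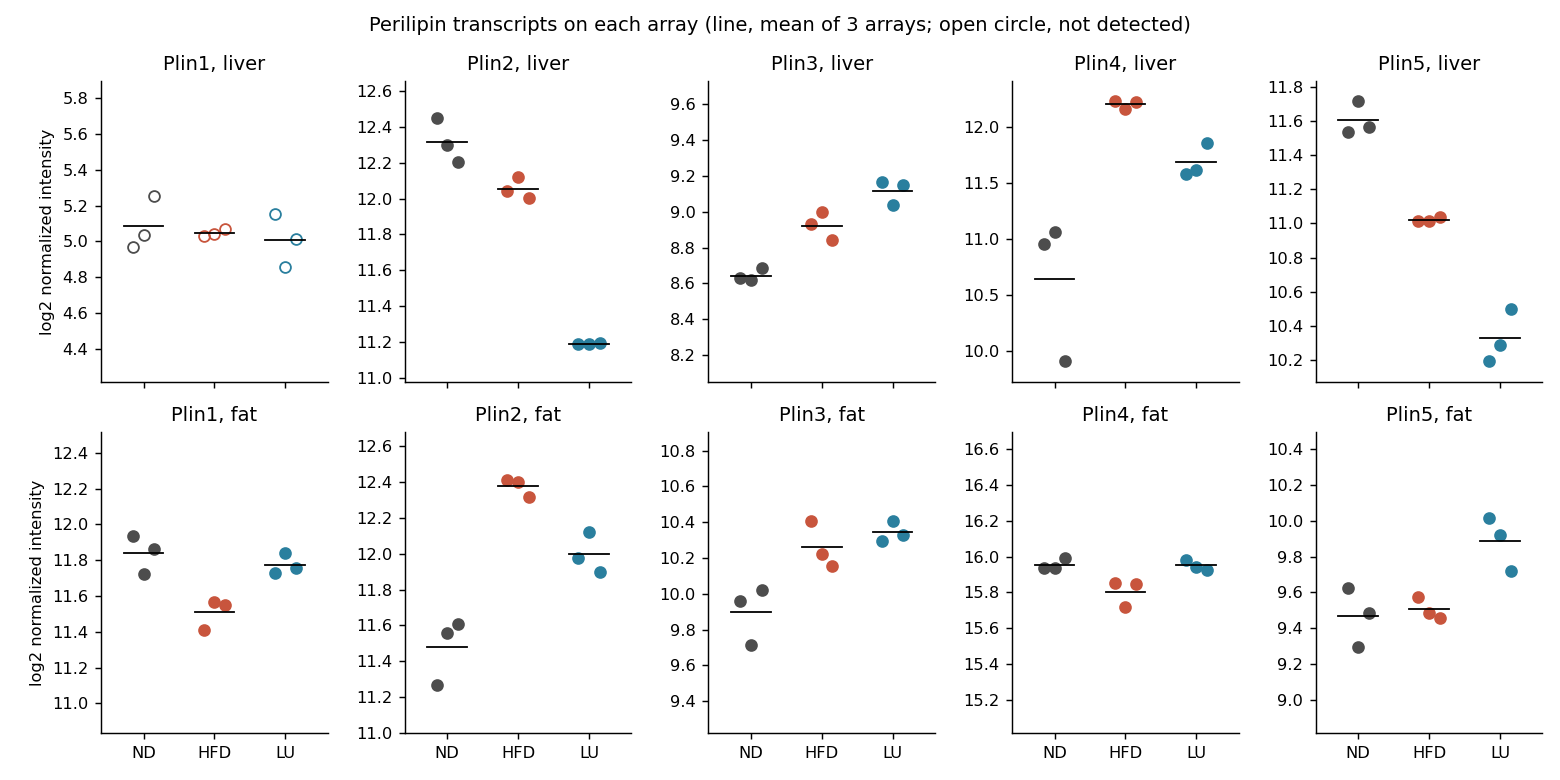
Normalized intensity (log2, y axis, each panel with its own range) of the 5 perilipins on each of the 3 arrays per diet (x axis), liver above and fat below, with the line at the mean and open circles where the probe was not detected. Plin1 is open on all 9 liver arrays, Plin2 and Plin5 step down over ND, HFD and LU in liver, and 1 ND array stands below the other ND arrays for Plin4 in liver.

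In liver the high-fat diet moved all 4 measured perilipins and moved them in both directions. Plin4 and Plin3 rose and Plin2 and Plin5 fell, where 30.3% of all genes tested passed. The arrays of the diets did not overlap for any of the 4, which held for 44.7% of all genes. With luteolin Plin2 and Plin5 fell further, and Plin3 and Plin4 did not pass. Of all genes 17.1% passed in that comparison, and the arrays did not overlap for all 4 perilipins and for 40.9% of all genes. The comparisons of HFD with ND and of LU with HFD share the HFD arrays.

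Plin2, the coat protein of most cells, lost transcript mainly with luteolin. Its intensity in liver was 5587, 5044 and 4718 on ND, 4212, 4456 and 4111 on HFD, and 2332, 2330.5 and 2338 on LU. The 3 LU arrays lay close together and far below every other array. Luteolin lowered Plin2 by 1.82-fold against HFD (-0.87 ± 0.07, adjusted p = 0.000559), number 84 of the 8937 genes by size of difference. HFD against ND gave -0.26 ± 0.07 (adjusted p = 0.0269), a smaller decrease that no longer passed without ND replicate 1 (-0.19), ND replicate 2 (-0.27), HFD replicate 1 (-0.26) or HFD replicate 3 (-0.24), with adjusted p from 0.0557 to 0.0831. It also missed with median scaling (-0.24, adjusted p = 0.0812) and with only the 6 arrays compared (-0.26, adjusted p = 0.0614).

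Plin5, the perilipin of fat-burning tissues, fell by similar steps in both comparisons. Its brighter probe (ILMN_3158565) gave 2969.9, 3361 and 3033 on ND, 2064, 2064 and 2104 on HFD, and 1170.3, 1253 and 1451 on LU. No array of one diet reached those of another. The decrease was 1.50-fold for HFD against ND (-0.59 ± 0.09, adjusted p = 0.00143) and 1.62-fold for LU against HFD (-0.69 ± 0.09, adjusted p = 0.00233). The other Plin5 probe (ILMN_2607215) moved the same way, from 440.1 to 514 on ND over 284 to 309 on HFD to 152 to 219.8 on LU. Its differences were -0.68 ± 0.13 and -0.74 ± 0.13 (adjusted p = 0.00593 and 0.00693, over all detected probes).

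Plin4, a coat protein known from fat cells, had the largest change of a perilipin in liver on the high-fat diet. Its intensity was 1985, 2133 and 957 on ND, 4813, 4583 and 4797 on HFD, and 3066, 3137 and 3721 on LU. ND replicate 3 was lower than the other arrays of its diet, and the LU arrays lay between those of ND and HFD without overlap. Plin4 rose 2.97-fold on HFD (1.57 ± 0.25, adjusted p = 0.00201), and 1.20 was the smallest rise with any array left out. LU against HFD gave -0.52 ± 0.25 with a 95% interval from -1.09 to 0.05 (adjusted p = 0.183). Without ND replicate 3, which enters this comparison only through the shared spread, the same difference of -0.52 passed (adjusted p = 0.00820), as it did with only the 6 arrays compared (-0.52, adjusted p = 0.0116).

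Plin3, the coat protein of new droplets, rose by less. Its intensity was 396, 393 and 411 on ND, 488, 511 and 459 on HFD, and 574, 525 and 569 on LU. The diets did not overlap. Plin3 rose 1.21-fold on HFD (0.28 ± 0.07, adjusted p = 0.0142), and without HFD replicate 2 the rise of 0.24 did not pass (adjusted p = 0.0554). LU against HFD gave 0.19 ± 0.07 with an interval from 0.04 to 0.35 (adjusted p = 0.0805), which did not pass after adjustment.

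Against ND, the luteolin diet lowered Plin2 and Plin5 and raised Plin3 and Plin4 in liver. Plin2 was 2.19-fold lower (-1.13 ± 0.07, adjusted p = 1.81e-05) and Plin5 2.42-fold lower (-1.28 ± 0.09, adjusted p = 2.16e-05). Plin3 was 1.39-fold higher (0.47 ± 0.07, adjusted p = 0.000703) and Plin4 2.07-fold higher (1.05 ± 0.25, adjusted p = 0.00956). All 4 passed, beside 41.1% of all genes, and the arrays did not overlap, as for 52.2% of all genes. Without ND replicate 3 the rise of Plin4 was 0.68 (adjusted p = 0.00138).

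Other cell types moved in the same liver samples, where 30.3% of all genes passed for HFD against ND and 17.1% for LU against HFD. Of 7 measured lipid-laden macrophage markers 6 rose on HFD, and their summed level was 3952 to 4883 on ND, 14916 to 21506 on HFD and 25391 to 29307 on LU, with Fabp5 not detected. Much of it was Lpl, also listed as a PPAR gamma target, at 1949 to 2506, 8705 to 12388 and 14841 to 16093. Of 8 measured macrophage markers 6 rose on HFD, with summed levels of 5297 to 5656, 9374 to 10688 and 9073 to 12302, and Itgax not detected. Of 9 measured hepatocyte markers 1 fell on HFD (Serpina1a, -0.51, adjusted p = 0.00591) and 2 rose on LU against HFD (Alb, 0.69, and Serpina1a, 0.57, adjusted p = 0.00222 and 0.00853). The Alb probe was dim, at 319 to 382 on ND, 337 to 374 on HFD and 549 to 609 on LU, beside 65053 to 68756 for Apoa1 on ND. How well it reads the albumin transcript was not tested. The summed level of the 9 hepatocyte markers, most of it from probes near the top of the scale, was 359580 to 369017 on ND, 355032 to 362365 on HFD and 363463 to 370164 on LU. Of 3 measured fat cell markers 2 passed as higher on HFD, Car3 by 0.68 (adjusted p = 0.000856) and Adig. Adig was detected on the HFD arrays alone and was kept only through them, so the filter set its direction in both comparisons. It was at least 1.18-fold higher on HFD than on ND and at least 1.31-fold higher than on LU. The summed level of the 3 fat cell markers, nearly all of it Car3, was 8055 to 9923, 13003 to 14537 and 13674 to 14726. Of 6 fibroblast markers 3 rose on HFD (Col1a1 by 2.52, Lum by 0.64 and Dcn by 0.42) and 1 rose on LU against HFD, with summed levels of 17487 to 18413, 22319 to 24029 and 22432 to 23899. Of 7 endothelium markers 4 rose on HFD and 5 fell on LU against HFD, with summed levels of 5047 to 5222, 5947 to 6374 and 4627 to 4966. The part of these cells in the perilipin differences was not tested.

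**Figure D2:**
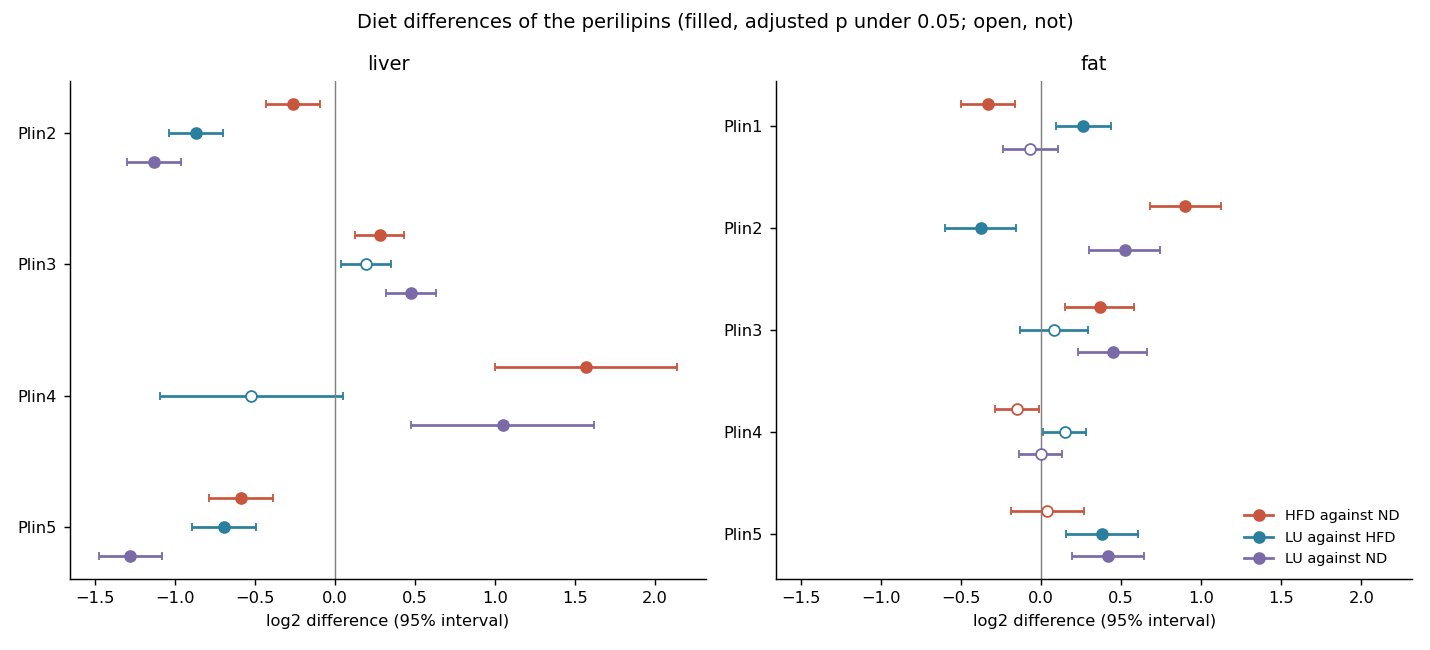
Difference between diets (log2, x axis) of each measured perilipin in liver and fat, with 95% intervals as bars and filled points where the adjusted p is under 0.05. Plin2 lies left of 0 in liver in all 3 comparisons, and in fat its difference is 0.90 for HFD against ND and -0.38 for LU against HFD.

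In fat the high-fat diet raised Plin2 and Plin3 and lowered Plin1, while Plin4 and Plin5 did not pass. Thus 3 of 5 perilipins passed, beside 45.4% of all genes, and the arrays did not overlap for 4, beside 53.0% of all genes. With luteolin Plin1 and Plin5 rose and Plin2 fell against HFD. That was again 3 of 5, beside 31.8% of all genes, with 4 not overlapping, beside 54.0% of all genes. These calls on luteolin were near the threshold. With any 1 HFD or LU array left out, between 0 and 2 perilipins passed.

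Plin1, the hormone-gated coat of the fat cell, fell on HFD and was higher again with luteolin. Its intensity in fat was 3921, 3384 and 3719 on ND, 2726, 3035 and 2994 on HFD, and 3391, 3660.2 and 3457 on LU. The HFD arrays lay below all others, and those of ND and LU overlapped. HFD lowered Plin1 by 1.26-fold (-0.33 ± 0.08, adjusted p = 0.00617), and LU raised it by 1.20-fold against HFD (0.26 ± 0.08, adjusted p = 0.0261). The rise missed the threshold without HFD replicate 1 (0.22), LU replicate 1 (0.29), LU replicate 2 (0.23) or LU replicate 3 (0.27), with adjusted p from 0.0529 to 0.0956. LU against ND gave -0.07 with an interval from -0.24 to 0.10 (adjusted p = 0.516).

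Plin2 had the largest difference among the perilipins in fat for HFD against ND, leaving aside Plin4, whose probe was near the top of the scale. Its intensity was 2459.8, 3012 and 3123 on ND, 5453, 5413 and 5101 on HFD, and 4036, 4463 and 3816 on LU. The diets did not overlap, with LU between ND and HFD. HFD raised it 1.87-fold (0.90 ± 0.10, adjusted p = 9.44e-05), and LU against HFD lowered it 1.30-fold (-0.38 ± 0.10, adjusted p = 0.0181). That decrease did not pass without HFD replicate 1 (-0.36), HFD replicate 2 (-0.36), LU replicate 1 (-0.37) or LU replicate 3 (-0.33), with adjusted p from 0.0571 to 0.0684, or with median scaling (-0.28, adjusted p = 0.0550). LU stayed 1.44-fold above ND (0.52 ± 0.10, adjusted p = 0.00390).

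Plin3 rose on HFD, with and without luteolin. Its intensity was 995, 841 and 1039 on ND, 1360.0, 1196 and 1143 on HFD, and 1258, 1359 and 1286 on LU. The HFD and LU arrays overlapped and both lay above ND. HFD raised it 1.29-fold (0.37 ± 0.10, adjusted p = 0.0122) and LU against ND 1.36-fold (0.45 ± 0.10, adjusted p = 0.00722). LU against HFD gave 0.08 with an interval from -0.13 to 0.30 (adjusted p = 0.554).

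Plin4 sat near the top of the scale in fat, which narrows any difference that can be seen. Its intensity was 62766, 62585 and 65120.3 on ND, 59137, 53917 and 58822 on HFD, and 64782, 63067 and 62244 on LU, and on each array only 10 to 45 probes of the table were brighter. The HFD arrays lay below those of both other diets. HFD against ND gave -0.15 ± 0.06 (interval -0.29 to -0.01, adjusted p = 0.0705) and LU against HFD 0.15 ± 0.06 (interval 0.01 to 0.28, adjusted p = 0.0941). Both passed with the authors' normalized values (-0.16 and 0.15, adjusted p = 0.0264 and 0.0391) and with median scaling (-0.33 and 0.35, adjusted p = 0.00879 and 0.00927). LU against ND gave 0.00 in size, with an interval from -0.14 to 0.13 (adjusted p = 0.975).

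Plin5 in fat changed on the luteolin diet. The brighter probe gave 788, 627 and 717 on ND, 762, 716 and 704 on HFD, and 1036, 968 and 844 on LU. The ND and HFD arrays overlapped and the LU arrays lay above both. HFD against ND gave 0.04 with an interval from -0.19 to 0.27 (adjusted p = 0.782). LU raised Plin5 by 1.30-fold against HFD (0.38 ± 0.10, adjusted p = 0.0196) and by 1.34-fold against ND (0.42 ± 0.10, adjusted p = 0.0123). The first rise did not pass without HFD replicate 2 (0.37), HFD replicate 3 (0.36), LU replicate 1 (0.32) or LU replicate 2 (0.36), with adjusted p from 0.0556 to 0.0736, and the second did not without LU replicate 1 (0.35, adjusted p = 0.0517). The other Plin5 probe was detected on 3 of 9 fat arrays and was not tested there.

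Against ND the luteolin diet left Plin2, Plin3 and Plin5 higher in fat, 3 of 5 perilipins beside 33.3% of all genes, and the arrays did not overlap for these 3, beside 48.5% of all genes. For the counts of markers that follow, 45.4% of all genes passed for HFD against ND and 31.8% for LU against HFD. The summed level of the 9 macrophage markers in fat was 29076 to 34921 on ND, 64454 to 70465 on HFD and 46561 to 50733 on LU. Of the 9, 8 were higher on HFD and 8 lower on LU against HFD. Itgax, a marker of inflammatory macrophages, was detected on no ND array. The 8 lipid-laden macrophage markers summed to 102062 to 103804, 179961 to 208455 and 161569 to 172548. They share Lpl and Fabp5 with the list of PPAR gamma targets, so their sum is no measure of macrophages alone. Of the 9 fat cell markers 7 fell on HFD and 1 rose (Lep, by 0.69, adjusted p = 0.000570). On LU against HFD 6 of the 9 rose. Their summed levels were 174028 to 186989, 163009 to 177383 and 179031 to 191436. All 5 measured mesothelium markers fell on HFD, 3 of them fell further on LU against HFD and all 5 were lower on LU than on ND, with summed levels of 2586 to 2973, 1478 to 2159.5 and 855 to 984. Of 8 fibroblast markers 3 rose and 1 fell on HFD and 7 fell on LU against HFD, with summed levels of 59682 to 67840, 72008 to 74454 and 60463 to 63671. Of 3 measured brown fat and oxidative muscle markers 1 rose and 1 fell on HFD. On LU against HFD 2 of them rose (Cox8b by 0.72 and Myl1 by 0.39). Of 7 endothelium markers 1 fell on HFD and 1 rose on LU against HFD. Of 5 epididymis and testis markers with a probe, only Prm1, a testis marker, was detected on all 9 fat arrays. Adam7 and Lcn8 were detected on 3 arrays each, and Lcn9 and Ddx4 on none. Prm1 rose by 1.69 on HFD (adjusted p = 0.0160), which did not pass without ND replicate 2 (adjusted p = 0.0534). The part of these cells in the perilipin differences was not tested.

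The response to diet differed between the tissues for 3 of the 4 perilipins measured in both, beside 31.7% of all genes, when change in fat minus change in liver was tested over all 18 arrays. Plin1, at background in liver, was left out. For HFD against ND it was 1.25 ± 0.13 for Plin2 (adjusted p = 5.00e-06), which rose by 1.00 in fat and changed by -0.24 in liver on this joint scale. Plin4 gave -1.56 ± 0.26 (adjusted p = 0.000378), with -0.13 in fat and 1.43 in liver, where the fat change was read near the top of the scale and may be compressed. Plin5 gave 0.58 ± 0.14 (adjusted p = 0.00567), with 0.04 in fat and -0.54 in liver. For Plin3 the difference was 0.12 with an interval from -0.14 to 0.37 (adjusted p = 0.502).

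For luteolin on the high-fat diet 1 of the 4 passed, beside 15.9% of all genes. Plin5 gave 1.05 ± 0.14 (adjusted p = 0.000522), with 0.41 in fat and -0.64 in liver. Its other probe was at background in fat. Plin2 gave 0.36 ± 0.13 (interval 0.08 to 0.64, adjusted p = 0.0757), with -0.43 in fat and -0.78 in liver. It passed with cyclic loess, with each tissue normalized alone, with median scaling and with no background correction (0.49, 0.49, 0.58 and 0.34), and without ND fat replicate 1 (0.36, adjusted p = 0.0312). Plin4, with the same limit in fat, gave 0.59 ± 0.26 (interval 0.03 to 1.15, adjusted p = 0.139) and passed without ND liver replicate 3 (0.59, adjusted p = 0.00183). Plin3 gave -0.10 with an interval from -0.36 to 0.15 (adjusted p = 0.610).

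**Figure D3:**
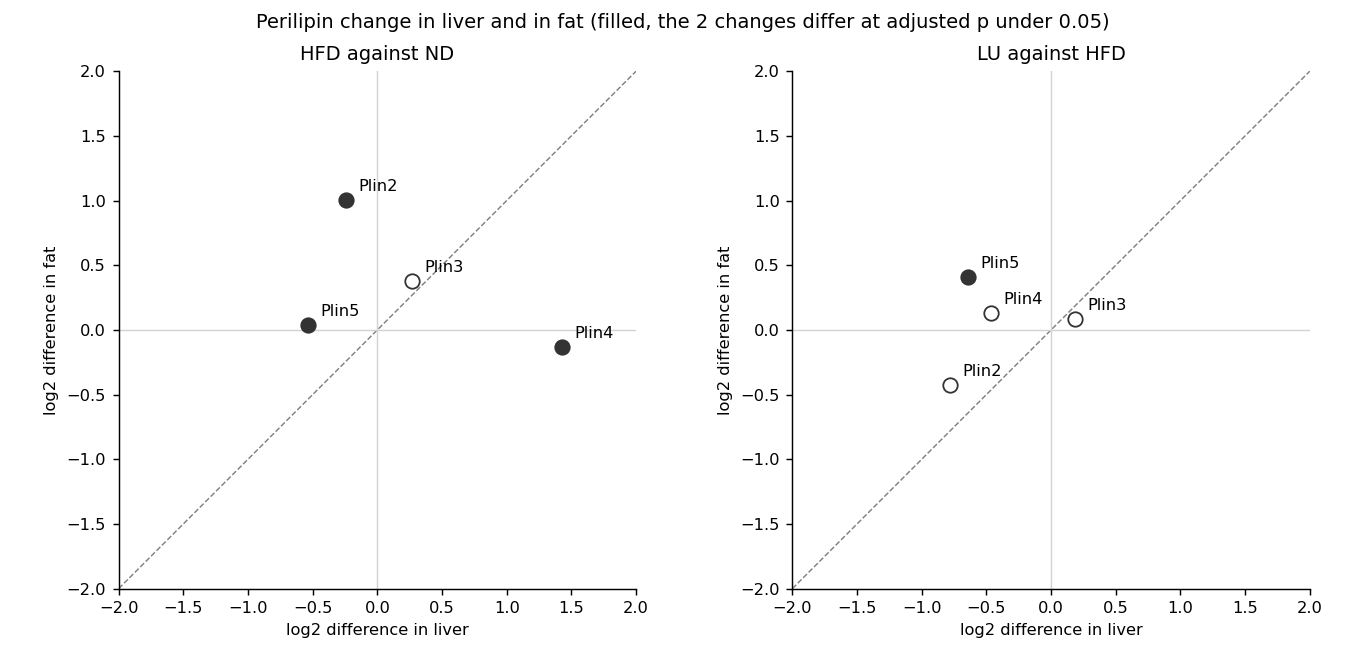
Change in liver (x axis) against change in fat (y axis), both log2 on the joint scale of 18 arrays, for HFD against ND and LU against HFD. Points are perilipins, filled where the changes differ between tissues with an adjusted p under 0.05, and the dashed line marks equal change. Plin2 and Plin4 lie far from the line for HFD against ND and Plin5 for LU against HFD.

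Of 9 lipases and cofactors measured in liver, 3 fell on HFD and 6 did not pass. That share was close to the 30.3% of all genes, with a median of -0.19 beside 0.00 over all genes. G0s2, an inhibitor of PNPLA2, fell from 13684 to 14980 on ND to 6265 to 7762 on HFD (SE of the log2 difference 0.12, adjusted p = 0.000535). Hilpda, another inhibitor of that lipase, fell by 0.53 (-0.53 ± 0.12, adjusted p = 0.00934), and Pnpla2 itself by 0.31 (-0.31 ± 0.07, adjusted p = 0.0120). Abhd5 gave 0.03 ± 0.08 (adjusted p = 0.782) and Lipe, hormone-sensitive lipase, 0.16 ± 0.19 (adjusted p = 0.558), with Lipe detected on 1 of the 3 ND arrays.

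With luteolin 1 of these 9 liver genes rose and 1 fell against HFD, beside 17.1% of all genes, with a median of 0.01 beside 0.03. Hilpda fell by a further 0.54 (-0.54 ± 0.12, adjusted p = 0.0162), and without LU replicate 2 the difference of -0.48 did not pass (adjusted p = 0.0519). Pnpla1, a relative of PNPLA2, was near the detection level and gave 0.53 ± 0.16 (adjusted p = 0.0480), a call lost under 12 of the 18 alternatives, with adjusted p up to 0.135. Pnpla2 gave 0.01 ± 0.07 (adjusted p = 0.966), Abhd5 -0.08 ± 0.08 (adjusted p = 0.546), G0s2 0.08 ± 0.12 (adjusted p = 0.700) and Lipe 0.07 ± 0.19 (adjusted p = 0.846).

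Among 15 droplet fusion and assembly genes measured in liver, 4 rose and 1 fell on HFD, a share close to the 30.3% of all genes, with a median of 0.05. Cidea, which fuses droplets in brown fat and fatty liver, was detected on no ND array and lay between 1727 and 2884 on HFD, at least 35.1-fold higher (adjusted p = 1.70e-06). Luteolin lowered it 6.59-fold, to 273 to 386 (-2.72 ± 0.22, adjusted p = 0.000528). Cidec, which binds PLIN1 on the droplet of fat cells, gave 0.76 ± 0.23 on HFD (adjusted p = 0.0325) and -0.70 ± 0.23 with luteolin (adjusted p = 0.0628). The Cidec difference on HFD did not pass without ND replicate 1, HFD replicate 1 or HFD replicate 2 (0.82, 0.75 and 0.66), with the replicate block, with trend and robust moderation or with only the 6 arrays compared, with adjusted p from 0.0506 to 0.104, and without ND replicate 2 it was 0.45 (adjusted p = 0.0429). Its difference with luteolin passed under 6 alternatives, among them without ND replicate 2 or 3 (-0.70 in both, adjusted p = 0.00937 and 0.0336) and with the authors' values (-0.61, adjusted p = 0.0247). Fitm1, a protein of droplet formation, rose by 0.74 ± 0.12 on HFD (adjusted p = 0.00206). It fell by 0.57 with luteolin (-0.57 ± 0.12, adjusted p = 0.0149), which did not pass without HFD replicate 1 or LU replicate 1 (adjusted p up to 0.0517). In that luteolin comparison 4 of the 15 genes fell and 1 rose, beside 17.1% of all genes, with a median of -0.12.

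Of 11 regulators known to act on perilipin genes, or partners of these, 2 rose and 3 fell in liver on HFD, beside 30.3% of all genes, with a median of -0.12. Pparg rose by 0.69 ± 0.12 (adjusted p = 0.00336) and Srebf1, the lipogenic factor, by 1.30 ± 0.11 (adjusted p = 8.05e-05). Ppara fell by 0.30 (-0.30 ± 0.08, adjusted p = 0.0172), a call lost with median scaling (adjusted p = 0.135) and without ND replicate 3 or HFD replicate 2 (adjusted p up to 0.0633). With luteolin against HFD, Ppargc1b, a coactivator, was the only gene of the 11 to pass, at 0.69 ± 0.15 (adjusted p = 0.0166), and it did not pass without LU replicate 1 or 3 (adjusted p up to 0.0562). Ppara gave -0.13 ± 0.08 (adjusted p = 0.271) and Pparg -0.03 ± 0.12 (adjusted p = 0.907).

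Of 10 targets of PPAR alpha measured in liver, 6 fell on HFD and 4 did not pass, with a median of -0.57. Luteolin against HFD gave 4 that fell and 6 that did not pass, with a median of -0.35, and LU against ND gave 8 that fell and 2 that did not pass, with a median of -1.05. Over all genes 30.3%, 17.1% and 41.1% passed, and the medians were 0.00, 0.03 and 0.03. Pdk4, a kinase that spares glucose when fat is burned, fell by 2.10 on HFD (-2.10 ± 0.12, adjusted p = 9.93e-06) and by 0.75 more with luteolin (-0.75 ± 0.12, adjusted p = 0.00583). Acot1, an acyl-CoA thioesterase, fell by 0.78 and 0.71 (-0.78 ± 0.11 and -0.71 ± 0.11, adjusted p = 0.00110 and 0.00479). Fgf21, a fasting hormone of the liver, fell by 1.37 on HFD (-1.37 ± 0.22, adjusted p = 0.00209). Of 7 targets of PPAR gamma measured in liver, 4 rose and 1 fell on HFD, beside 30.3% of all genes. This list also holds Cidea and Cidec, and its median of 0.76 was the value of Cidec. Those that rose were Cidea, Cidec, Aqp7 and Lpl, the lipase that takes up fat from lipoproteins (2.26 ± 0.14, adjusted p = 1.56e-05). Aqp7 was detected on no ND array and on 2 HFD arrays, and was at least 1.05-fold higher on HFD. Cd36, Fabp4, Fabp5 and Adipoq had a probe and were detected on no liver array. With luteolin 1 of the 7 rose and 3 fell, beside 17.1% of all genes, with a median of -0.29.

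**Figure D4:**
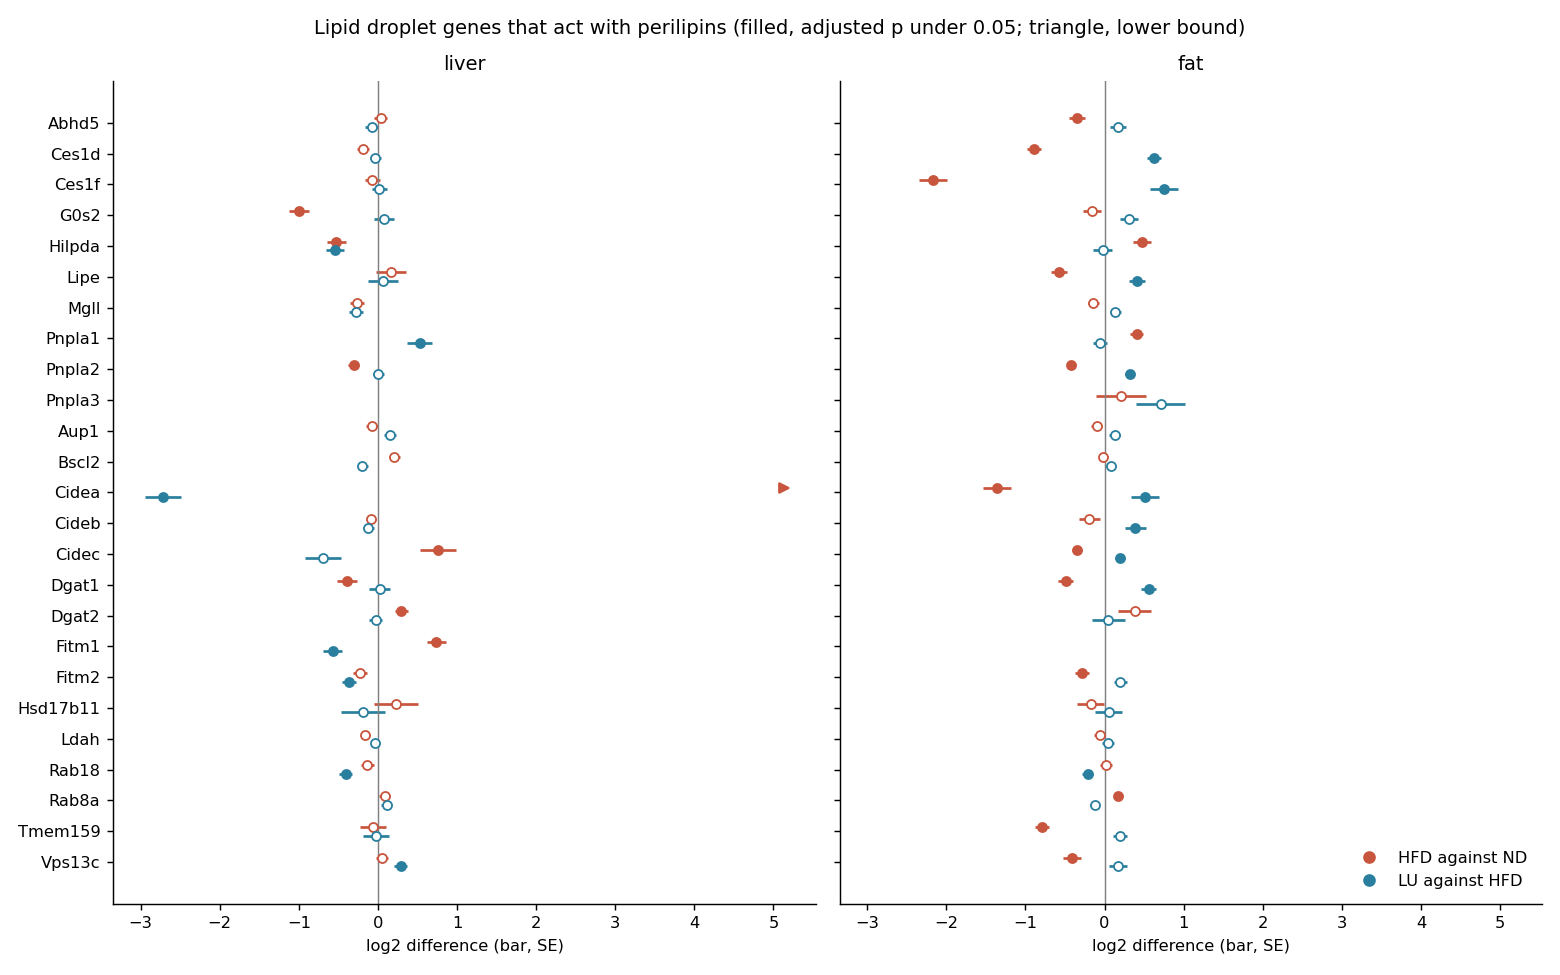
Difference between diets (log2, x axis) of the listed lipases, cofactors and droplet assembly genes in liver and fat. Bars are 1 SE, points are filled where the adjusted p is under 0.05, and a triangle is a lower bound. Cidea stands furthest from 0 in liver, and in fat Pnpla2, Lipe, Ces1d and Ces1f lie left of 0 for HFD against ND and right of 0 for LU against HFD.

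Of 10 lipases and cofactors measured in fat, 5 fell, 2 rose and 3 did not pass on HFD, beside 45.4% of all genes, with a median of -0.25 beside -0.03 over all genes. With luteolin 4 rose and 6 did not pass, beside 31.8% of all genes, with a median of 0.31 beside 0.02. Pnpla2, the first lipase of the droplet, fell by 0.42 (-0.42 ± 0.06, adjusted p = 0.000428) and rose by 0.32 ± 0.06 with luteolin (adjusted p = 0.00436). Its intensity was 57666 to 62766 on ND and 54633 to 56172 on LU, and that of Ces1d 61370 to 63067 on ND. These lie near the top of the scale, which can compress the differences of both genes, and by how much was not tested. Lipe, hormone-sensitive lipase, fell by 0.58 (-0.58 ± 0.10, adjusted p = 0.00140) and rose by 0.42 ± 0.10 (adjusted p = 0.0129), the latter not without HFD replicate 2 (adjusted p = 0.0518). The carboxylesterase Ces1f fell by 2.17 (-2.17 ± 0.18, adjusted p = 1.57e-05) and rose by 0.75 ± 0.18 with luteolin (adjusted p = 0.0114).

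Abhd5, the activator that PLIN1 holds, fell by 0.35 in fat on HFD (-0.35 ± 0.10, adjusted p = 0.0226). That decrease did not pass without ND replicate 2, ND replicate 3 or HFD replicate 1 (adjusted p up to 0.0767), and luteolin against HFD gave 0.17 ± 0.10 (adjusted p = 0.235). G0s2 gave -0.16 ± 0.11 on HFD (adjusted p = 0.291) and 0.31 ± 0.11 with luteolin (adjusted p = 0.0637), which passed under 7 alternatives: without ND replicate 1 or 2 (0.31 and 0.32), with only the 6 arrays compared (0.32), the authors' values (0.32), no background correction (0.31), median scaling (0.46) and trend and robust moderation (0.31), with adjusted p from 0.0130 to 0.0364. Hilpda rose by 0.47 ± 0.12 on HFD (adjusted p = 0.00922).

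Of 14 droplet fusion and assembly genes in fat, 6 fell and 1 rose on HFD, a share close to the 45.4% of all genes, with a median of -0.19. Cidea fell by 1.36 (-1.36 ± 0.18, adjusted p = 0.000248) and Cidec by 0.35 (-0.35 ± 0.06, adjusted p = 0.00183). Dgat1, a triglyceride synthase, fell by 0.49 (-0.49 ± 0.09, adjusted p = 0.00247) and rose by 0.56 ± 0.09 with luteolin (adjusted p = 0.00273). In the luteolin comparison 4 rose and 1 fell, beside 31.8% of all genes, with a median of 0.15. The luteolin differences of Cidea (0.52 ± 0.18, adjusted p = 0.0494) and Cidec (0.19 ± 0.06, adjusted p = 0.0457) stood at the threshold and were lost under 11 and 10 of the 19 alternatives, the omission of any single HFD 1, HFD 2 or LU array among them.

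Of 10 receptors and partners in fat 7 fell on HFD, beside 45.4% of all genes, with a median of -0.37, and 6 rose with luteolin, beside 31.8%, with a median of 0.25. Pparg fell by 0.42 (-0.42 ± 0.13, adjusted p = 0.0227), not without ND replicate 2, HFD replicate 1 or HFD replicate 2 (adjusted p up to 0.0810), and gave 0.18 ± 0.13 with luteolin (adjusted p = 0.298). Ppara was detected on no fat array. Rxra, the partner receptor of the PPARs, fell by 0.96 (-0.96 ± 0.09, adjusted p = 3.76e-05) and rose by 0.64 ± 0.09 (adjusted p = 0.00132). Of 11 targets of PPAR gamma 4 fell and 1 rose on HFD, and 5 rose with luteolin, beside 45.4% and 31.8% of all genes, with medians of -0.20 and 0.19. This list too holds Cidea and Cidec.

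Over the 9 liver arrays the members also varied together or apart, as a description of values that share diet groups and normalization. Plin2 and Plin5 correlated at Pearson's r = 0.94, while Plin3 ran opposite to both (r = -0.88 with Plin2 and -0.94 with Plin5). In fat Plin1 ran opposite to Plin2 (r = -0.82). The liver genes most like Plin2 over the 9 arrays were Hnrnpa2b1 (r = 0.993), Decr2 (0.993) and Gid8 (0.992), and those most like Plin5 were Slc45a3 (0.995), Adpgk (0.989) and Mosmo (0.984). Plin4 was most like Hps3 (0.970), Vldlr (0.965) and Pik3ap1 (0.963), and Plin3 like Esyt1 (0.991), Rbl1 (0.988) and Trib3 (0.985). In fat the nearest genes were Sfxn4 (0.981), Ubac2 (0.976) and Myl1 (0.970) for Plin1, Stard5 (0.990), Zfand2a (0.981) and Lair1 (0.981) for Plin2, and Galns (0.972), Ccdc167 (0.972) and Tbc1d13 (0.968) for Plin3. They were Bmp4 (0.974), Rsad1 (0.971) and Nat8f1 (0.967) for Plin4, and Mcrs1 (0.978), Irgm1 (0.976) and Ulk3 (0.967) for Plin5. Of 8701 liver genes compared, 288, 468, 81 and 315 had r above 0.9 with Plin2, Plin3, Plin4 and Plin5. Of 9958 in fat, 148, 453, 151, 60 and 77 had it with Plin1, Plin2, Plin3, Plin4 and Plin5.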

How the data were processed

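Total RNA (550 ng per sample, per the labels' protocols) was hybridized to 18 Illumina bead arrays. The deposited tables give, per the file headers, a signal intensity and a detection p-value for each probe and array, not normalized between arrays. GenomeStudio 2009.2 and R 2.4.1 were used, per the submitters' processing notes. The authors also deposited a matrix of log2 values, whose normalization is not given in the sources used here; it served only as an alternative.

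Intensities were background corrected from the detection p-values, quantile normalized with an offset of 16 within each tissue, and log2 transformed with limma 3.58.1 in R 4.3.3. For tissue comparisons all 18 arrays were normalized together, so changes differ slightly between the 2 scales. A probe was kept if 1 diet or more had all 3 of its arrays at detection p below 0.05, and the brightest probe stood for a gene. Linear models with all 3 diets (lmFit, eBayes) gave differences, 95% intervals and p-values adjusted by the Benjamini-Hochberg method. A bound against an undetected group used the lowest detected signal of each array. Scripts were tested on simulated data. The number of arrays limits the precision.

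All perilipins are named. Of each other list, up to 4 members a comparison with the largest difference among those past the threshold with no overlap could be named, and Pnpla2, Abhd5, G0s2, Lipe, Cidea, Cidec, Ppara and Pparg wherever measured. Hilpda, Ces1f, Dgat1 and others come from that rule. Members and lists were chosen with earlier results of these data known. Likeness is Pearson's r, with the 3 highest genes given. Genes with a clone, LOC, Gm, Rik or Ensembl name were left out of it. Promoters come from RefSeq (GRCm38.p6), which gives these positions. Alternatives in background correction, normalization, filters, probes, moderation, samples, replicate block and omitted arrays are described in the closing section.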

Additional observations from a re-analysis of the deposited data

Results flagged for a closer look

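The diet effect differed between fat and liver, by limma's test of the difference over 18 arrays, for these perilipin values. For HFD against ND, change in fat minus change in liver was 1.25 for Plin2, -1.56 for Plin4 and 0.58 for Plin5 (adjusted p = 5.00e-06, 0.000378 and 0.00567). For LU against HFD it was 1.05 for Plin5 (adjusted p = 0.000522). The fat side of the Plin4 value was read near the top of the scale and may be compressed, to an extent that was not tested. With any array left out the values ran from 1.14 to 1.33 for Plin2, from -1.75 to -1.21 for Plin4, from 0.49 to 0.66 for Plin5 on HFD, and from 0.98 to 1.14 for Plin5 with luteolin.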

How the results depend on the processing

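Across the alternatives, 934 perilipin values kept direction and side of the threshold, 22 lost a call, 21 gained one and 7 changed sign. The cause was not tested except where fewer arrays were fitted. With median scaling Plin2 gave -0.24 for HFD against ND in liver and -0.28 for LU against HFD in fat, neither past the threshold, and Plin4 in fat passed at -0.33 and 0.35. Under the same scaling 3 uncalled values changed sign: Plin3 for HFD against ND, fat minus liver (-0.14), Plin4 for LU against ND in fat (0.021) and Plin5 for HFD against ND in fat (-0.026). Plin4 for HFD against ND in fat also passed with the authors' values (-0.16), cyclic loess (-0.21), no background correction (-0.15) and trend and robust moderation (-0.15), and for LU against HFD with the authors' values (0.15) and trend and robust moderation (0.15). With only the 6 arrays compared, Plin2 for HFD against ND in liver did not pass (-0.26) and Plin4 for LU against HFD in liver did (-0.52). Plin2 in fat against liver on HFD passed with cyclic loess (-0.34), median scaling (-0.53) and no background correction (-0.18). For LU against HFD, fat minus liver, Plin2 passed with cyclic loess (0.49), each tissue normalized on its own (0.49), median scaling (0.58) and no background correction (0.34), so that 2 perilipins passed in place of 1.

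With single arrays left out, the number of perilipins past the threshold ran from 0 to 3 for LU against HFD in fat and from 1 to 2 for its fat minus liver difference. Differences ran from 0.22 to 0.29 for Plin1, -0.44 to -0.33 for Plin2 and 0.32 to 0.46 for Plin5 (LU against HFD, fat), and from 0.33 to 0.50 for Plin5 (LU against ND, fat). In liver they ran from -0.32 to -0.19 for Plin2 and 0.24 to 0.32 for Plin3 (HFD against ND) and from -0.61 to -0.47 for Plin4 (LU against HFD). Fat minus liver for LU against HFD ran from 0.29 to 0.41 for Plin2 and 0.55 to 0.67 for Plin4. Plin2 in fat against liver ran from -0.21 to -0.15 on HFD and from 0.11 to 0.23 on LU. Uncalled values that changed sign ran from -0.019 to 0.017 for Plin4 (LU against ND, fat) and from -0.049 to 0.12 for Plin5 (HFD against ND, fat). In liver the uncalled partners that did so were Abhd5 (HFD against ND, -0.031 to 0.10), Lipe (HFD against ND, -0.061 to 0.28, and LU against HFD, -0.085 to 0.21), G0s2 (-0.034 to 0.20), Pnpla2 (-0.017 to 0.041) and Pparg (-0.097 to 0.037), the last 3 for LU against HFD. Pnpla2 also gave -0.017 with cyclic loess and Pparg 0.0070 with median scaling.

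Deviations of arrays with the same replicate number correlated at -0.155 to 0.192 between diets of a tissue. Between liver and fat they correlated at 0.107, 0.157 and 0.173 on ND, at -0.100 to 0.061 on HFD and at 0.013 to 0.077 on LU. Not every pair exceeded 0.1, and the labels do not say that a number marks 1 mouse in both tissues, so the fits take the arrays as unpaired. With diet and number as a block shared by liver and fat, no tissue call of a perilipin changed, and adjusted p for fat minus liver was 0.000397 for Plin2, 0.00190 for Plin4 and 0.0323 for Plin5 (HFD against ND) and 0.00694 for Plin5 (LU against HFD). With the replicate number as a block within a tissue, Plin1 for LU against HFD in fat kept its size of 0.26 and did not pass (adjusted p = 0.0530), and no other perilipin call changed. Genes past the threshold for LU against HFD in liver went from 1526 to 1123, and no count moved by over 1.5 times. Testing all detected probes gave 7325 against 4653 (HFD against ND, fat), 5317 against 3259 and 2797 against 1526 (LU against HFD, fat and liver), and 5668 against 3405 and 6127 against 3672 (LU against ND, fat and liver), since more probes were tested. Left-out arrays gave as few as 758 genes for LU against HFD in liver, 2136 in fat without LU replicate 2, and 2239 for LU against ND in fat without LU replicate 1. Median scaling turned the split of higher and lower genes from 1598 and 1107 to 2283 and 547 (HFD against ND, liver), from 2115 and 1557 to 3211 and 851 (LU against ND, liver) and from 1673 and 1586 to 2843 and 1098 (LU against HFD, fat), with medians over all genes of 0.11, 0.16 and 0.12. Fat minus liver went from 1455 and 1962 to 961 and 3205 (HFD against ND, median -0.18) and from 788 and 924 to 1113 and 663 (LU against HFD). Dim probes such as Lipe and Pnpla1 in liver lie near the detection limit.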
